A study of Mus musculus with 12 samples.

Results

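The genes described here are 9 members of the Notch pathway, taken by their symbols from the 18926 genes of the deposited tables. They are the receptors *Notch1*, *Notch2* and *Notch3*, the ligands *Jag1*, *Jag2* and *Dll1*, and the target genes *Hes1*, *Hey1* and *Nrarp*. All 9 were listed in all 12 libraries, and all 9 passed the filter on low counts that left 18053 genes for testing. The libraries are of total RNA, depleted of rRNA, from S1 tumorspheres. S1 is a cell line from a mouse gastric cancer of the ChetPS model (floxed *Smad4* F/F and *Trp53* F/F with *Cdh1* F/+), so these engineered alleles are common to every group, controls included. The 4 groups of 3 libraries each were control, *Nf2*-KO, *Rasa1*-KO and *Rasa1* KO with *Nf2* KO (double-KO), made with Cas9 and guide RNAs delivered by lentivirus, with a guide that targets no gene or the plasmid backbone as the controls of the study. The labels call the cells a monolayer, whereas the series describes tumorspheres, the round clusters that such cells form in suspension. By the study's methods, cells transduced with lentivirus were pooled after antibiotic selection, and Cas9-expressing gastric cancer cells were likewise a pool of clones. No source says that the 3 libraries of a group came from separate cultures, and the study calls such points technical replications, so p-values here measure the spread between these libraries.

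Notch receptors are single-pass membrane proteins that bind ligands of the Jagged and Delta-like families on a neighbouring cell. Binding lets ADAM proteases and then γ-secretase cut the receptor, and the freed intracellular domain enters the nucleus, where it joins the DNA-binding protein RBPJ and a Mastermind co-activator to switch on genes of the Hes and Hey families and *Nrarp*. In the stomach and intestine, Notch signaling is known for keeping progenitor cells dividing and for holding back the secretory fates.

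The knocked-out genes were measured first, because the names of the deposited tables call the 3 samples labelled *Rasa1*-KO double-KO, and the 3 samples labelled double-KO *Rasa1*-KO. *Nf2*, which encodes the tumor suppressor Merlin of the Hippo pathway, had between 55.4 and 61.0 CPM (counts scaled to the library size, with TMM factors) in the control libraries. It had between 13.2 and 14.3 CPM in *Nf2*-KO, between 11.6 and 12.1 CPM in the *Rasa1*-labelled libraries and between 56.4 and 62.6 CPM in the double-labelled libraries. *Rasa1*, which encodes a GTPase-activating protein of Ras, had between 60.5 and 78.5 CPM in control, between 97.2 and 101.1 CPM in *Nf2*-KO, between 30.4 and 34.5 CPM in the *Rasa1*-labelled libraries and between 17.7 and 23.3 CPM in the double-labelled libraries. *Nf2* was therefore low in the *Rasa1*-labelled libraries and at the control level in the double-labelled libraries, which goes against both labels. They are called the *Rasa1*-labelled and the double-labelled libraries throughout, and an exchange of the labels makes all their values change places.

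Some libraries stood apart from their group before any Notch gene was considered. The mean Euclidean distance of a library to the others of its group, over the log2 CPM of all genes tested, was between 51.2 and 53.3 in *Nf2*-KO and in the *Rasa1*-labelled libraries. It was 147 for the control library without a number, 103 for control library 1, 124.1 for control library 2, 89.3 for double-labelled library 1 and 69.2 for the other two of that label. The control library without a number and double-labelled library 1 are the libraries without a number in the names of the tables, and each was the farthest of its group, although control libraries 1 and 2 had larger distances than double-labelled library 1. Their part in a result is given by repeating the comparison without the first of them or without both. Total counts were 95340850, 69091487 and 43818139 in control, between 84440583 and 87751112 in *Nf2*-KO, between 81566766 and 85170568 in the *Rasa1*-labelled libraries and between 76472023 and 96674463 in the double-labelled libraries.

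Keratins of simple epithelia were abundant in every library, and *Krt8* alone had between 839.8 and 1758 FPKM (fragments per kilobase of transcript, scaled to the mapped reads). The gastric markers were low: 4 of the 9 were in the tables (*Tff1*, *Tff2*, *Muc5ac* and *Atp4a*), and their summed level was between 1.35 and 6.32 FPKM. *Muc6*, *Gkn1*, *Gkn2*, *Pgc* and *Gast* were not analysed here. The tables list only genes with at least 1 count in every library, so a gene that was lost in a whole group could not appear in them.

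Across all 9 genes, *Nf2*-KO and the *Rasa1*-labelled libraries differed from control in more members than the double-labelled libraries did. In *Nf2*-KO, 2 of the 9 genes rose and 3 fell at an edgeR adjusted p under 0.05. Of all genes tested, 20.6% rose and 22.2% fell in that comparison. In the *Rasa1*-labelled libraries, 2 rose and 4 fell, where 19.7% of all genes rose and 22.2% fell. In the double-labelled libraries, 1 rose and 2 fell, where 4.00% of all genes rose and 2.46% fell. The median log2 fold change of the 9 genes was -0.25 in *Nf2*-KO, -0.39 in the *Rasa1*-labelled libraries and -0.14 in the double-labelled libraries, beside -0.07, -0.08 and -0.04 over all genes tested. Changed genes were thus common in the background of *Nf2*-KO and of the *Rasa1*-labelled libraries and rare in that of the double-labelled libraries. These 3 comparisons share the control libraries, so their values are given side by side and were not correlated. In bulk RNA, fewer cells of a kind and less RNA per cell cannot be told apart.

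**Figure D1:**
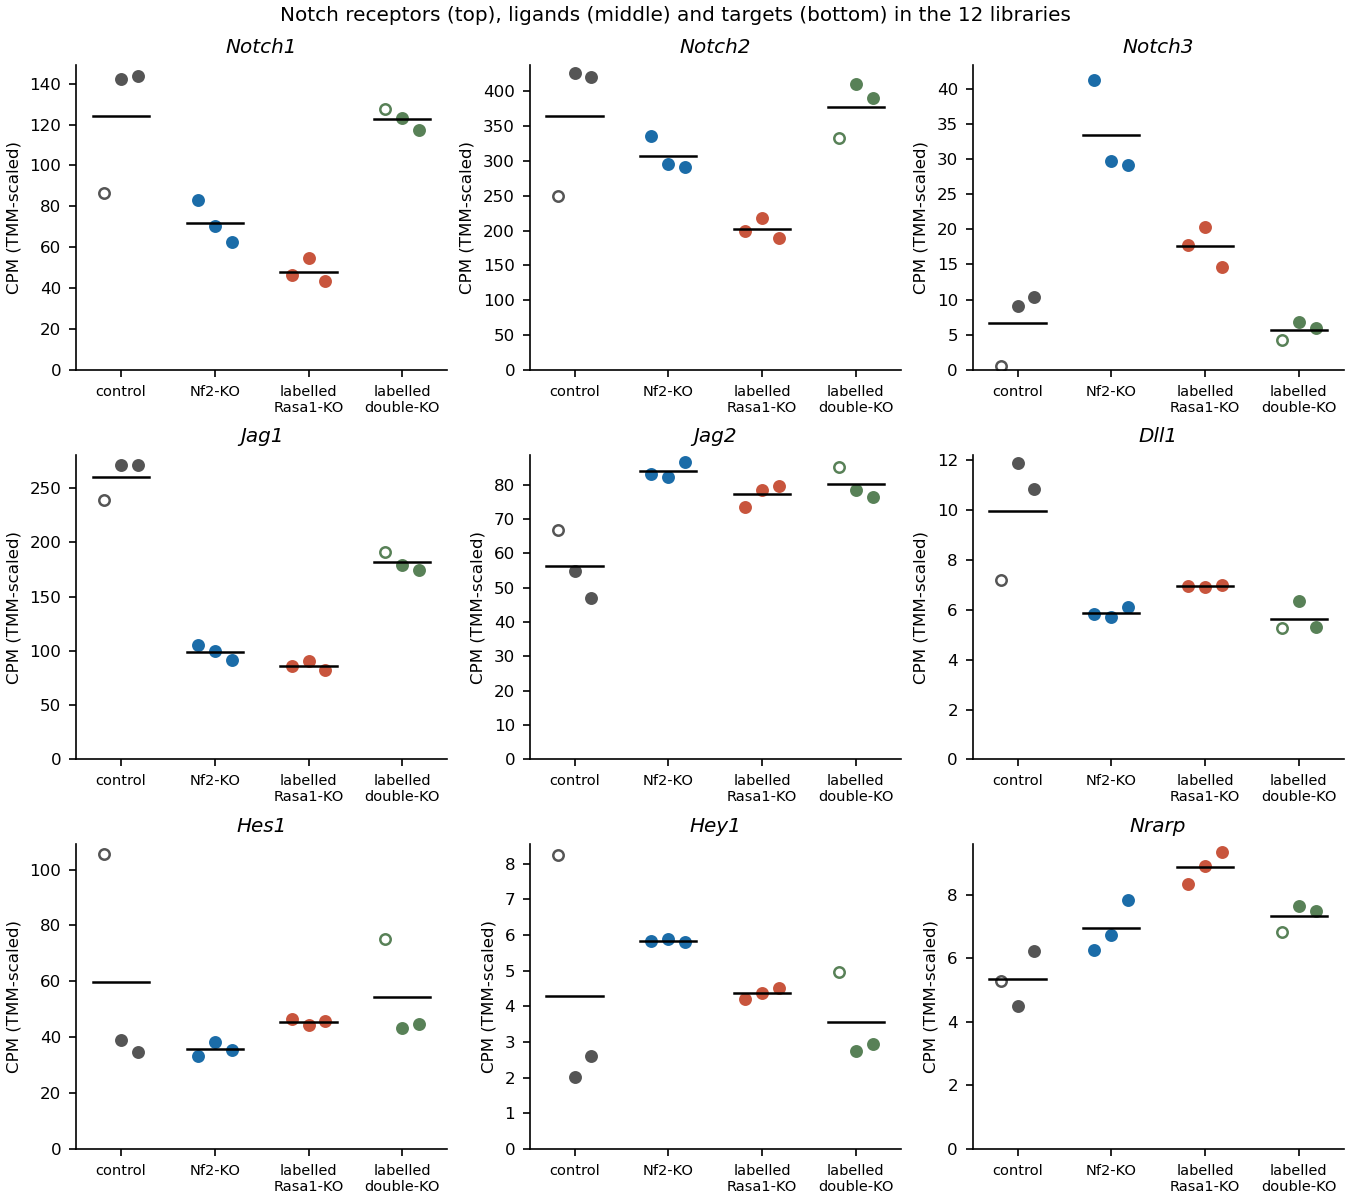
Level of each of the 9 Notch genes in every library, in TMM-scaled CPM on axes that start at 0, by group. Points are libraries, black bars are group means, and open points are the control library without a number and double-labelled library 1; *Jag1* was highest in the 3 controls (239 to 271 CPM) and *Notch3* highest in *Nf2*-KO (29.1 to 41.3 CPM).

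Among the receptors, *Notch1* fell in *Nf2*-KO and in the *Rasa1*-labelled libraries and stayed within the control range in the double-labelled libraries. The gene (Entrez 18128) spans positions 26457902 to 26503822 of chromosome 2 of GRCm38.p6. Its level was 86.5, 142 and 144 CPM in the control libraries and 83.0, 70.3 and 62.7 CPM in *Nf2*-KO. It was 46.2, 54.7 and 43.5 CPM in the *Rasa1*-labelled libraries and 127, 123 and 117 CPM in the double-labelled libraries. The lowest control, the library without a number, lay just above the highest *Nf2*-KO library, so these groups did not overlap but nearly touched. Against control, the log2 fold change was -0.79 in *Nf2*-KO (SE 0.18, edgeR adjusted p = 0.0048), -1.37 in the *Rasa1*-labelled libraries (SE 0.18, edgeR adjusted p = 0.00015) and -0.02 in the double-labelled libraries (SE 0.18, edgeR adjusted p = 0.96). *Notch1* was 2.55-fold higher in the double-labelled libraries than in the *Rasa1*-labelled libraries (edgeR adjusted p = 0.0003) and 1.70-fold higher than in *Nf2*-KO (edgeR adjusted p = 0.0073).

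RefSeq promoters of GRCm38.p6, of which the 250 bases before the start are used here, were found for 7 of the 9 members: *Notch1*, *Notch2*, *Notch3*, *Jag1*, *Jag2*, *Dll1* (2 promoters) and *Nrarp*. They were searched on both strands for TGGGAA (the core of the RBPJ site), GGAATG (the TEAD site, bound by the partners of YAP) and TGANTCA (the AP-1 site). The sequences of *Notch1* and *Dll1*, the promoters with a match, are printed first, and that of *Jag1*, the ligand with the widest span between groups, follows; capitals mark the matched letters, and all lie on the minus strand, read 5′ to 3′ toward the gene.
Notch1, chr2:26503823-26504072: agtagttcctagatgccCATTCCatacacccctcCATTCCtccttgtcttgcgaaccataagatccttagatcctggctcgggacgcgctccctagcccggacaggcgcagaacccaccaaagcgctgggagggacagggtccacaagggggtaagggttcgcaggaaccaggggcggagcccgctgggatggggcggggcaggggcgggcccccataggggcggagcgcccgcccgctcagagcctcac
Dll1, chr17:15376933-15377182: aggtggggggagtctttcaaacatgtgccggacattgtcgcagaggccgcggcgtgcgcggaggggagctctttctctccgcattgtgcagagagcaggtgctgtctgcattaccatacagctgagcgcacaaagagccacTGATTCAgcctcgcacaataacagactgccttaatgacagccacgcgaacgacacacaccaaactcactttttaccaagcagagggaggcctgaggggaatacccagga
Jag1, chr2:137116521-137116770: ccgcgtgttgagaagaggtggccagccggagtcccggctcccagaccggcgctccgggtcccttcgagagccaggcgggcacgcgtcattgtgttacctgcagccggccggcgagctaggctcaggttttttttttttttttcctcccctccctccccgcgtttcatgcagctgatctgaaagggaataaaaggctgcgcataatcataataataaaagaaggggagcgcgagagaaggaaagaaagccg
The *Notch1* window held CATTCC, which is GGAATG read on the other strand, at 233 to 228 and again at 216 to 211 bases before the start. GGAATG was found in 12.6% of 32851 RefSeq promoters. The *Dll1* window held TGATTCA at 109 to 103 bases before the start, and TGANTCA was found in 6.75% of promoters. The bases after this *Dll1* start were not found near the beginning of a GENCODE transcript of the gene, nor were those of *Notch3*. For the other *Dll1* promoter (chr17:15375824-15376073) they were found, and its window held 0 matches. TGGGAA was in 0 of the 8 windows, none of which belonged to *Hes1* or *Hey1*, and in 21.6% of all promoters. These are matches of letters in a window and not measured sites.

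*Notch2* was the most abundant receptor per length in every group and fell in the *Rasa1*-labelled libraries. The gene (Entrez 18129) spans positions 98013538 to 98150367 of chromosome 3. It had 249, 425 and 420 CPM in control, 335, 296 and 292 CPM in *Nf2*-KO, 199, 219 and 189 CPM in the *Rasa1*-labelled libraries and 332, 410 and 391 CPM in the double-labelled libraries. The control library without a number was the lowest of its group and lay below all 3 *Nf2*-KO libraries. The log2 fold change against control was -0.85 in the *Rasa1*-labelled libraries (SE 0.18, edgeR adjusted p = 0.0032), whose libraries all lay below every control. It was -0.25 in *Nf2*-KO (SE 0.18, edgeR adjusted p = 0.29) and 0.05 in the double-labelled libraries (SE 0.18, edgeR adjusted p = 0.91). Without the unnumbered control library, the *Nf2*-KO value was -0.46 and passed the threshold, as it did with the replicate block by the numbers of the table names (-0.34). *Notch2* was 1.87-fold higher in the double-labelled libraries than in the *Rasa1*-labelled libraries (edgeR adjusted p = 0.0034).

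*Notch3*, a receptor known from smooth muscle and other mesenchymal cells, was the member with the widest span between groups and rose in *Nf2*-KO, where *Notch1* fell. The gene (Entrez 18131) spans positions 32120820 to 32166896 of chromosome 17. Its level was 0.574, 9.15 and 10.4 CPM in control, 41.3, 29.7 and 29.1 CPM in *Nf2*-KO, 17.7, 20.3 and 14.7 CPM in the *Rasa1*-labelled libraries and 4.32, 6.77 and 6.02 CPM in the double-labelled libraries. The control library without a number stood far below all others, and double-labelled library 1 was the lowest of its label. *Notch3* rose 5.02-fold in *Nf2*-KO (log2 fold change 2.33, SE 0.67, edgeR adjusted p = 0.016), and every *Nf2*-KO library lay above every control. Without the unnumbered control library, this log2 fold change was 1.78 and still passed the threshold, whereas it did not pass with the libraries of these groups alone (2.28). In the *Rasa1*-labelled libraries the log2 fold change was 1.40 (SE 0.66, edgeR adjusted p = 0.11), and without the unnumbered control library it was 0.85 and passed the threshold. In the double-labelled libraries it was -0.22 (SE 0.65, edgeR adjusted p = 0.89), and it was -0.77 and passed the threshold without the same control. *Notch3* was 5.85-fold lower in the double-labelled libraries than in *Nf2*-KO (log2 fold change -2.55, SE 0.68, edgeR adjusted p = 0.014). This call did not hold without double-labelled library 1 (-2.38, edgeR adjusted p = 0.054), whereas it held without both libraries that lack a table number (-2.38, edgeR adjusted p = 5.1e-07).

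The summed level of fibroblast markers was highest in *Nf2*-KO and second in the *Rasa1*-labelled libraries, as the level of *Notch3* was. Of the 7 markers, 6 were in the tables (*Col1a1*, *Col1a2*, *Col3a1*, *Pdgfra*, *Pdgfrb* and *Dcn*), and *Lum* was not analysed here. Their summed level was 22.2, 184 and 161 FPKM in control, 1157, 1233 and 1236 FPKM in *Nf2*-KO, 397, 427 and 412 FPKM in the *Rasa1*-labelled libraries and 22.7, 46.6 and 48.6 FPKM in the double-labelled libraries. The control library without a number was again the lowest of all, barely below double-labelled library 1. *Col3a1*, a fibrillar collagen, had between 6.31 and 1120 FPKM and was the most abundant marker in every library but the unnumbered control, where *Dcn*, the proteoglycan decorin, had 15.4 FPKM and *Col3a1* 6.31 FPKM. Against control, 5 of the 6 markers rose and 1, *Dcn*, fell, both in *Nf2*-KO and in the *Rasa1*-labelled libraries, while in the double-labelled libraries 0 rose and *Dcn* fell. The epithelial markers *Krt8*, *Krt18* and *Krt19* did not pass the test in *Nf2*-KO, whereas *Epcam* fell by 2.63 and *Cdh1*, E-cadherin, fell by 2.09 on the log2 scale. The part of these cells or genes in the *Notch3* result was not tested. Of the endothelial markers, *Pecam1* and *Kdr* were in the tables, with at most 0.39 FPKM together. Of the leukocyte markers, *Ptprc* and *Cd68* were in the tables, and nearly all of their summed level of 4.09 to 16.2 FPKM was *Cd68*, a gene of lysosomes.

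**Figure D2:**
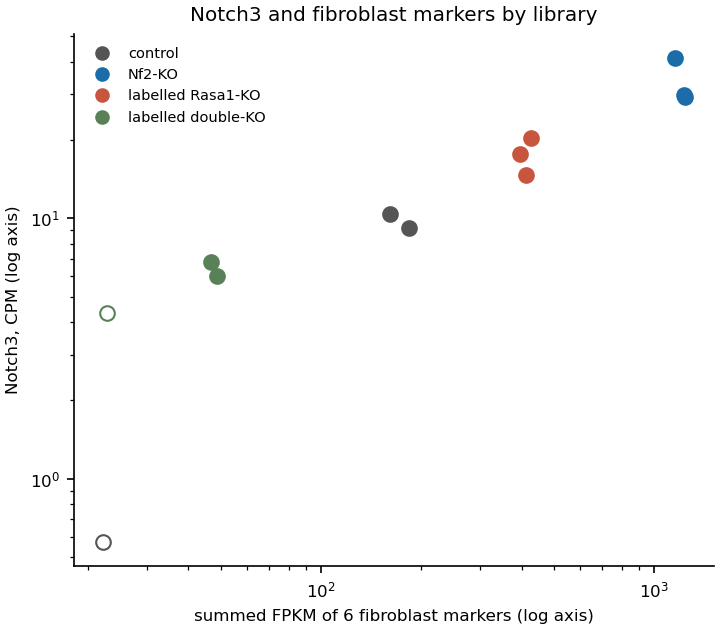
*Notch3* in TMM-scaled CPM against the summed FPKM of 6 fibroblast markers, both on log axes, with 1 point per library coloured by group and open points for the control library without a number and double-labelled library 1. The *Nf2*-KO libraries lie at the upper right (1157 to 1236 FPKM), and the control library without a number lies at the lower left with 22.2 FPKM and 0.574 CPM.

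Among the ligands, *Jag1* fell in every knockout group and had the smallest error of the 9 genes. The gene (Entrez 16449) spans positions 137081451 to 137116520 of chromosome 2. It had 239, 271 and 271 CPM in control, 106, 99.9 and 92.0 CPM in *Nf2*-KO, 86.1, 90.9 and 82.2 CPM in the *Rasa1*-labelled libraries and 191, 179 and 175 CPM in the double-labelled libraries. The lowest control lay above the highest library of each other group, and the double-labelled libraries lay between the controls and the other groups without overlap. *Jag1* fell 2.63-fold in *Nf2*-KO (log2 fold change -1.39, SE 0.10, edgeR adjusted p = 7.0e-07), 3.01-fold in the *Rasa1*-labelled libraries (-1.59, SE 0.10, edgeR adjusted p = 4.6e-07) and 1.43-fold in the double-labelled libraries (-0.52, SE 0.09, edgeR adjusted p = 0.0074). It was 2.1-fold higher in the double-labelled libraries than in the *Rasa1*-labelled libraries (edgeR adjusted p = 1.5e-05) and 1.83-fold higher than in *Nf2*-KO (edgeR adjusted p = 3.6e-05).

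*Jag2*, the other Jagged ligand, moved the opposite way and by less. The gene (Entrez 16450) spans positions 112907803 to 112929812 of chromosome 12. Its level was 66.9, 54.9 and 47.1 CPM in control, 83.1, 82.1 and 86.7 CPM in *Nf2*-KO, 73.6, 78.5 and 79.5 CPM in the *Rasa1*-labelled libraries and 85.1, 78.5 and 76.5 CPM in the double-labelled libraries. All libraries of the 3 knockout groups lay above all controls, and the knockout groups lay close to each other. *Jag2* rose 1.49-fold in *Nf2*-KO (log2 fold change 0.58, SE 0.12, edgeR adjusted p = 0.0024), 1.37-fold in the *Rasa1*-labelled libraries (0.46, SE 0.12, edgeR adjusted p = 0.0099) and 1.42-fold in the double-labelled libraries (0.51, SE 0.12, edgeR adjusted p = 0.027). Differences of *Jag2* between the knockout groups were between -0.12 and 0.05 on the log2 scale (SE 0.12 each), and none passed the threshold. The *Jag2* call in the *Rasa1*-labelled libraries was lost in a fit of these libraries and control alone (0.46).

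*Dll1*, a Delta-like ligand, was a low-abundance gene that fell in each comparison with control. The gene (Entrez 13388) spans positions 15367354 to 15376932 of chromosome 17. It had 7.18, 11.9 and 10.8 CPM in control, 5.82, 5.69 and 6.11 CPM in *Nf2*-KO, 6.94, 6.91 and 6.98 CPM in the *Rasa1*-labelled libraries and 5.25, 6.36 and 5.29 CPM in the double-labelled libraries. The control library without a number was the lowest control and lay barely above the *Rasa1*-labelled libraries. The log2 fold change was -0.76 in *Nf2*-KO (SE 0.17, edgeR adjusted p = 0.0044), -0.52 in the *Rasa1*-labelled libraries (SE 0.17, edgeR adjusted p = 0.032) and -0.82 in the double-labelled libraries (SE 0.17, edgeR adjusted p = 0.017). The call in the *Rasa1*-labelled libraries was lost without control library 1 (-0.37) or 2 (-0.47) and without any 1 library of that label (-0.52 to -0.51), and when only these groups were fitted (-0.51) or the title numbers entered as a replicate block (-0.49).

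The 3 calls in the double-labelled libraries (*Jag1*, *Jag2* and *Dll1*) were all ligands. None of them remained without library 3 of that label, 1 remained without control library 1, and 0 remained when only these groups were fitted, where 0.102% of all genes passed. All 3 remained without the unnumbered control library (*Jag1* -0.58, *Jag2* 0.65 and *Dll1* -1.01). They also remained without both libraries that lack a table number (-0.61, 0.61 and -0.96), where 29.9% of all genes passed. For the fits without 1 library, the share of all genes that passed is not given here. The log2 fold changes without library 3 were -0.48 for *Jag1*, 0.55 for *Jag2* and -0.76 for *Dll1*. The *Jag2* call was also lost without double-labelled library 1 (0.46) or 2 (0.52), so it was lost whichever library of that label was left out.

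**Figure D3:**
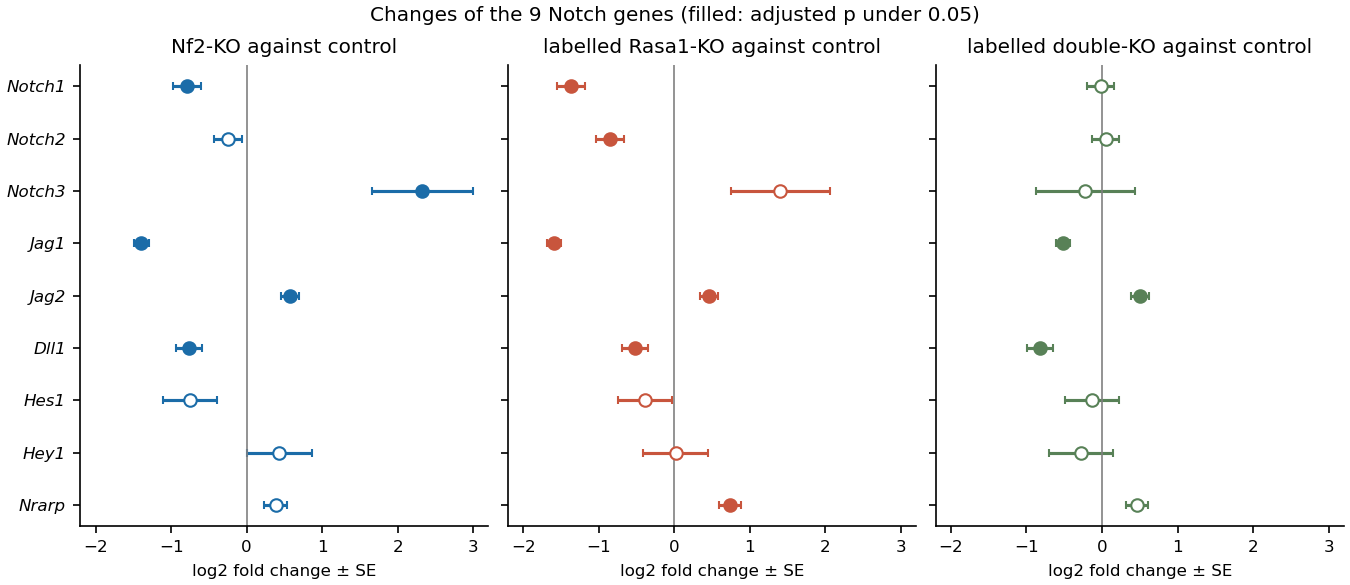
Log2 fold changes of the 9 Notch genes against control in 3 panels, for *Nf2*-KO, the *Rasa1*-labelled libraries and the double-labelled libraries, with bars of 1 SE. Filled points had an edgeR adjusted p under 0.05 (5, 6 and 3 genes); *Jag1* lies left of 0 and *Jag2* right of 0 in each panel, and *Notch3* has the longest bars (SE 0.65 to 0.67).

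Among the target genes, *Nrarp*, which encodes a small ankyrin-repeat protein that dampens Notch signaling, rose in the *Rasa1*-labelled libraries. The gene (Entrez 67122) spans positions 25180758 to 25183339 of chromosome 2. Its level was 5.27, 4.49 and 6.23 CPM in control, 6.27, 6.73 and 7.84 CPM in *Nf2*-KO, 8.32, 8.91 and 9.34 CPM in the *Rasa1*-labelled libraries and 6.83, 7.65 and 7.49 CPM in the double-labelled libraries. All knockout libraries lay above all controls, although the highest control and the lowest *Nf2*-KO library nearly touched. The log2 fold change was 0.73 in the *Rasa1*-labelled libraries (SE 0.15, edgeR adjusted p = 0.0022), 0.38 in *Nf2*-KO (SE 0.15, edgeR adjusted p = 0.054) and 0.46 in the double-labelled libraries (SE 0.15, edgeR adjusted p = 0.091). The values that missed the threshold lay close to it. In *Nf2*-KO, *Nrarp* passed with DESeq2 (0.41), RLE size factors (0.39) and no filter (0.39), without control library 2 (0.50) and without both libraries that lack a table number (0.38). In the double-labelled libraries it passed with DESeq2 (0.48) and with the numbers of the table names as a replicate block (0.47), without the unnumbered control (0.46), without control library 2 (0.60) and without both libraries that lack a table number (0.51).

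*Hes1*, a bHLH repressor and the best known Notch target, did not pass the test in any comparison, and its direction in the *Rasa1*-labelled and double-labelled libraries turned without 1 control library. The gene (Entrez 15205) spans positions 30065357 to 30067796 of chromosome 16. It had 105, 38.9 and 34.8 CPM in control, 33.2, 38.3 and 35.4 CPM in *Nf2*-KO, 46.7, 44.3 and 45.9 CPM in the *Rasa1*-labelled libraries and 75.0, 43.2 and 44.8 CPM in the double-labelled libraries. The 2 high values belonged to the control library without a number and to double-labelled library 1, and the other two libraries of each of these groups lay close together. Against control, the log2 fold change was -0.75 in *Nf2*-KO (SE 0.36, edgeR adjusted p = 0.11), -0.39 in the *Rasa1*-labelled libraries (SE 0.36, edgeR adjusted p = 0.40) and -0.14 in the double-labelled libraries (SE 0.36, edgeR adjusted p = 0.87). Without the unnumbered control library, the values were -0.05, 0.31 and 0.56, and the last passed the threshold. Without both libraries that lack a table number, they were -0.05, 0.31 and 0.26, and the value of the *Rasa1*-labelled libraries passed. Without control library 2, the *Hes1* value in *Nf2*-KO was -1.02 and passed.

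*Hey1*, a bHLH repressor of the Hairy-related family, had the same high libraries. The gene (Entrez 15213) spans positions 8663359 to 8667038 of chromosome 3. Its level was 8.23, 2.03 and 2.62 CPM in control, 5.83, 5.87 and 5.79 CPM in *Nf2*-KO, 4.22, 4.38 and 4.50 CPM in the *Rasa1*-labelled libraries and 4.96, 2.74 and 2.95 CPM in the double-labelled libraries. The control library without a number was the highest of all 12, and the other two controls were the lowest. The log2 fold change was 0.43 in *Nf2*-KO (SE 0.43, edgeR adjusted p = 0.43), 0.02 in the *Rasa1*-labelled libraries (SE 0.43, edgeR adjusted p = 0.98) and -0.28 in the double-labelled libraries (SE 0.43, edgeR adjusted p = 0.76). Without the unnumbered control library, it was 1.34 in *Nf2*-KO and 0.92 in the *Rasa1*-labelled libraries, both past the threshold, and 0.62 in the double-labelled libraries, which did not pass. With the replicate block by the numbers of the table names, *Hey1* also passed in *Nf2*-KO (1.13) and in the *Rasa1*-labelled libraries (0.71), and it was lower in the double-labelled libraries than in the *Rasa1*-labelled (-0.78) and the *Nf2*-KO libraries (-1.20). The same control library was thus high in *Hes1* and *Hey1* and lowest among the controls in *Notch1*, *Notch2*, *Notch3*, *Jag1* and *Dll1*.

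The knockout groups were also compared with each other. Because *Nf2* goes against 2 of the labels, the values are given as differences between the labelled libraries. Between the double-labelled and the *Rasa1*-labelled libraries, *Notch1*, *Notch2* and *Jag1* passed as higher in the former, and 0 of the 9 genes passed as lower. Of all genes tested, 16.3% were higher and 14.0% lower. *Notch3* had 5.70 CPM on average in the double-labelled and 17.6 CPM in the *Rasa1*-labelled libraries, which did not overlap, and its log2 fold change of -1.63 did not pass (SE 0.66, edgeR adjusted p = 0.084). It passed when only these groups were fitted (-1.63), without both libraries that lack a table number (-1.46) and on the log2(FPKM + 1) scale (-0.84). Between the double-labelled and the *Nf2*-KO libraries, *Notch1* and *Jag1* were higher and *Notch3* lower in the former, where 16.9% of all genes were higher and 15.3% lower. Between the *Rasa1*-labelled and the *Nf2*-KO libraries, 0 of the 9 genes passed at the edgeR adjusted p and DESeq2 called 2. Of all genes tested, 1.92% were higher and 1.74% lower by edgeR, and DESeq2 called 8.31% in either direction. Fitted with the libraries of these groups alone, 7 of the 9 genes passed in this last comparison, among them *Notch1* (-0.59), *Notch2* (-0.61), *Notch3* (-0.93) and *Hes1* (0.35). In that fit 25.8% of all genes passed in either direction. Without both libraries that lack a table number, 5 passed, where 19.2% of all genes did, and these differences had nearly the same size (-0.58, -0.61, -0.92 and 0.36). The median log2 fold change of the 9 genes was 0.05, 0.08 and -0.20 in these comparisons, in the same order, beside 0.00, 0.01 and 0.01 over all genes tested.

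The study set its threshold at a fold change of at least 3 with a raw p under 0.05 and used DESeq2. With the same threshold on the edgeR fit, *Notch3* was called in *Nf2*-KO and *Jag1* in the *Rasa1*-labelled libraries, and 0 members in the double-labelled libraries. That rule called 11.4%, 9.27% and 2.03% of all genes in these comparisons. It called 1 member between the double-labelled and the *Rasa1*-labelled libraries (5.66% of all genes), *Notch3*, 0 between the *Rasa1*-labelled and the *Nf2*-KO libraries (1.29%), and 1, *Notch3*, between the double-labelled and the *Nf2*-KO libraries (7.69%).

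Levels of different genes were compared in FPKM, which divide by transcript length. In control, *Hes1* was the highest with 38.9 ± 24.0 FPKM (SD, n = 3), followed by *Jag1* with 34.0 ± 0.44 and *Notch2* with 33.6 ± 10.4, and the ranges of these neighbours overlapped. The place of *Hes1* rested on the unnumbered control, with 66.6 FPKM. In the other two controls *Hes1* had 25.9 and 24.2 FPKM and lay below *Notch2* (38.9 and 40.4 FPKM) and *Jag1* (33.7 and 34.5 FPKM). *Notch1* (12.7 ± 3.81 FPKM) and *Jag2* (11.99 ± 0.907) overlapped as well and lay below *Notch2* without overlap. *Dll1* (2.67 ± 0.734 FPKM), *Nrarp* (1.98 ± 0.395), *Hey1* (1.87 ± 1.43) and *Notch3* (0.814 ± 0.659) were the lowest, and each overlapped the next. In *Nf2*-KO the order was *Notch2* (26.9 ± 2.15 FPKM), *Hes1* (22.7 ± 1.99), *Jag2* (17.2 ± 0.703), *Jag1* (12.6 ± 1.03), *Notch1* (6.97 ± 1.03), *Notch3* (3.801 ± 0.777), *Hey1* (2.50 ± 0.119), *Nrarp* (2.47 ± 0.255) and *Dll1* (1.48 ± 0.021). Only *Hey1* and *Nrarp* overlapped there, so *Jag2* lay above *Jag1* in *Nf2*-KO, whereas *Jag1* lay above *Jag2* in control. In the *Rasa1*-labelled libraries, *Jag2* (15.03 ± 1.11 FPKM) also lay above *Jag1* (11.4 ± 0.477) without overlap, and the highest gene was *Hes1* (27.7 ± 0.42). In the double-labelled libraries, *Jag1* (23.2 ± 2.80 FPKM) lay above *Jag2* (15.3 ± 0.884), as in control, and *Notch3* (0.628 ± 0.143) was the lowest of the 9.

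**Figure D4:**
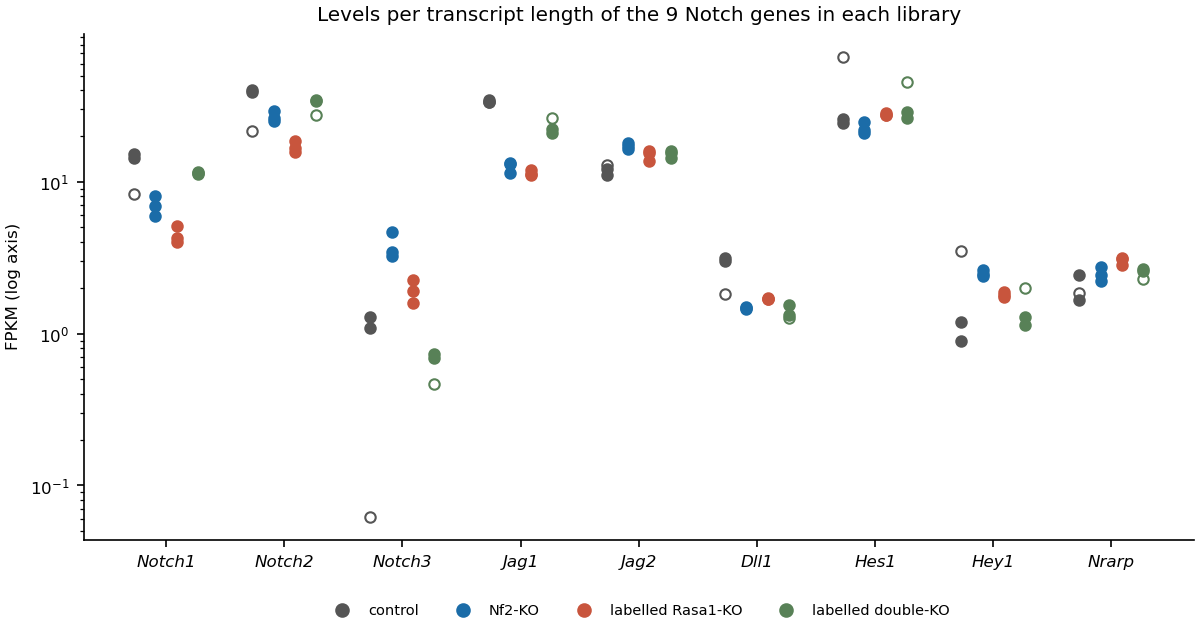
FPKM of the 9 Notch genes in each library on a log axis, coloured by group, with open points for the control library without a number and double-labelled library 1. *Hes1*, *Notch2* and *Jag1* reach the highest values and *Notch3* runs from 0.062 FPKM in the control library without a number to 4.69 FPKM in *Nf2*-KO.

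Other genes of the pathway were counted in 10 lists of 72 genes, of which 60 were in the tables and tested. In *Nf2*-KO, 10 rose and 24 fell; in the *Rasa1*-labelled libraries, 10 rose and 24 fell; in the double-labelled libraries, 2 rose and 5 fell. As shares of the 60 genes, 16.7% rose and 40% fell in *Nf2*-KO, beside 20.6% and 22.2% of all genes tested. The shares were 16.7% and 40% in the *Rasa1*-labelled libraries, beside 19.7% and 22.2%, and 3.33% and 8.33% in the double-labelled libraries, beside 4.00% and 2.46%. The median log2 fold changes were -0.37, -0.23 and -0.10, beside -0.07, -0.08 and -0.04 over all genes tested. Between the double-labelled and the *Rasa1*-labelled libraries, 19 were higher and 5 lower in the former, and between the double-labelled and the *Nf2*-KO libraries, 16 were higher and 8 lower. These were 31.7% and 8.33%, beside 16.3% and 14.0% of all genes, and 26.7% and 13.3%, beside 16.9% and 15.3%. Between the *Rasa1*-labelled and the *Nf2*-KO libraries, 0 passed at the edgeR adjusted p, where 1.92% of all genes were higher and 1.74% lower. Without both libraries that lack a table number, 10 of the 60 genes passed, where 19.2% of all genes did.

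Among the other receptors and ligands, *Dll4*, a Delta-like ligand known from blood vessels, fell in *Nf2*-KO (log2 fold change -1.36) and in the *Rasa1*-labelled libraries (-1.61), from a level under 1 CPM. *Dlk2*, a non-canonical relative of the ligands, rose by 3.81 (SE 0.64, edgeR adjusted p = 0.00058) and 4.08 (SE 0.64, edgeR adjusted p = 0.00044) from 0.24 ± 0.19 CPM (SD, n = 3) in control. Of the 3 genes of this list in the tables, *Notch4* did not pass in any comparison. *Dll3*, *Dlk1* and *Dner* were not analysed here.

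Of the 6 glycosyltransferases, which add sugars to the receptors and tune which ligand they bind, 3 fell in *Nf2*-KO, 4 in the *Rasa1*-labelled libraries and 2 in the double-labelled libraries, and 0 rose. *Poglut1*, the most abundant of them per length, changed by -0.15 (edgeR adjusted p = 0.17), -0.23 (edgeR adjusted p = 0.049) and -0.17 (edgeR adjusted p = 0.30). Ubiquitin ligases and epsins drive ligand uptake, a step that pulls on the bound receptor. Their list held *Neurl3*, with the largest fall against control after *Olfm4* among the other pathway genes. Of the 7 genes of this list, 2 rose and 4 fell in *Nf2*-KO, 2 rose and 3 fell in the *Rasa1*-labelled libraries, and 1 fell in the double-labelled libraries. *Neurl3* fell by 3.11 (SE 0.19, edgeR adjusted p = 3.4e-07), 2.90 (SE 0.19, edgeR adjusted p = 8.7e-07) and 1.36 (SE 0.18, edgeR adjusted p = 0.0014) in these groups. *Neurl1b* fell by 1.78 and 1.58, and *Neurl1a* by 1.01 and 1.19, in *Nf2*-KO and in the *Rasa1*-labelled libraries, while *Mib1*, the Mind bomb ligase that many ligands depend on, changed by -0.08 and -0.18 and did not pass.

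Of the 10 genes of receptor cleavage, 1 rose and 5 fell both in *Nf2*-KO and in the *Rasa1*-labelled libraries, and 0 passed in the double-labelled libraries. *Furin*, which cuts the receptor in the Golgi, fell by 1.19 in *Nf2*-KO (SE 0.26, edgeR adjusted p = 0.0031) and by 0.99 in the *Rasa1*-labelled libraries, whose highest library (50.6 CPM) lay above the lowest control (49.2 CPM). *Adam10*, the protease of the first cut after ligand binding, fell by 1.11 (SE 0.24, edgeR adjusted p = 0.0032) and 1.00, and *Psen2*, a catalytic subunit of γ-secretase, fell by 1.06 and 0.74.

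In the nuclear complex, the DNA-binding subunit rose and 5 of the 8 other genes fell in *Nf2*-KO and in the *Rasa1*-labelled libraries. *Rbpj* rose by 1.36 in *Nf2*-KO (SE 0.14, edgeR adjusted p = 1.6e-05) and by 1.02 in the *Rasa1*-labelled libraries (SE 0.14, edgeR adjusted p = 0.00018), and changed by 0.13 in the double-labelled libraries (edgeR adjusted p = 0.64). The Mastermind gene *Maml2* fell by 1.88 (SE 0.34, edgeR adjusted p = 0.0011) and 1.78 (SE 0.34, edgeR adjusted p = 0.0017), and *Maml3* fell by 0.72 and 1.04. The histone acetyltransferases *Ep300* and *Crebbp* fell by 1.35 and 1.10 in *Nf2*-KO and by 1.29 and 1.35 in the *Rasa1*-labelled libraries. Their control libraries spread widely, between 53.5 and 273 CPM for *Ep300* and between 33.4 and 125 CPM for *Crebbp*, and the lowest control lay within the range of both groups. *Maml1*, *Kat2a* and *Snw1* did not pass in these groups, where *Snw1* had 0.42 and 0.50, and 0 of the 9 genes passed in the double-labelled libraries. Of the 6 co-repressors tested, 1 rose and 1 fell in both, and 0 passed in the double-labelled libraries. *Cir1* rose by 0.72 and 0.61 and *Tle3* fell by 0.63 and 0.61, both under the size set for naming a gene and named because they were the ones counted. *Ctbp1*, the most abundant of these genes per length, changed by -0.29, -0.20 and -0.17 in the 3 groups and did not pass.

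Of 8 tested genes of receptor turnover, 2 rose and 2 fell in *Nf2*-KO, 1 rose and 2 fell in the *Rasa1*-labelled libraries, and 1 rose and 1 fell in the double-labelled libraries. *Numbl*, a relative of the Notch inhibitor Numb, rose by 1.26, 1.02 and 0.53 in these groups, and *Dtx3*, a Deltex ubiquitin ligase, rose by 1.03 in *Nf2*-KO. The list of other genes reported as Notch targets did not move one way: of 7 tested, 2 rose and 3 fell in *Nf2*-KO, 3 rose and 3 fell in the *Rasa1*-labelled libraries, and 1 rose and 1 fell in the double-labelled libraries. *Hey2* rose by 1.86 in *Nf2*-KO (SE 0.44, edgeR adjusted p = 0.0054) and by 1.58 in the *Rasa1*-labelled libraries. Its mean level was low, with 0.13 CPM in control, 0.46 CPM in *Nf2*-KO and 0.38 CPM in the *Rasa1*-labelled libraries. *Ccnd1*, cyclin D1, rose by 1.16, 1.52 and 0.52 in the 3 groups, and *Myc* rose by 1.17 in the *Rasa1*-labelled libraries. *Olfm4*, a stem cell marker of the intestine, fell by 7.61 (SE 0.48, edgeR adjusted p = 3.9e-07), 6.56 (SE 0.45, edgeR adjusted p = 1.1e-06) and 2.35 (SE 0.35, edgeR adjusted p = 0.0024), and *Sox9* and *Cd44* fell by 1.45 and 1.48 in *Nf2*-KO and by 1.37 and 1.60 in the *Rasa1*-labelled libraries, although *Sox9* overlapped control in both (15.9 to 89.3 CPM in control). *Myc*, *Ccnd1*, *Sox9* and *Cd44* are also known to respond to other pathways. *Hes6*, the gene of the list of other Hes genes that was in the tables, and the secretory factors *Spdef*, *Gfi1* and *Insm1* did not pass in any comparison, and *Gfi1*, the most abundant of these factors, changed by -0.49, -0.70 and -0.10.

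**Figure D5:**
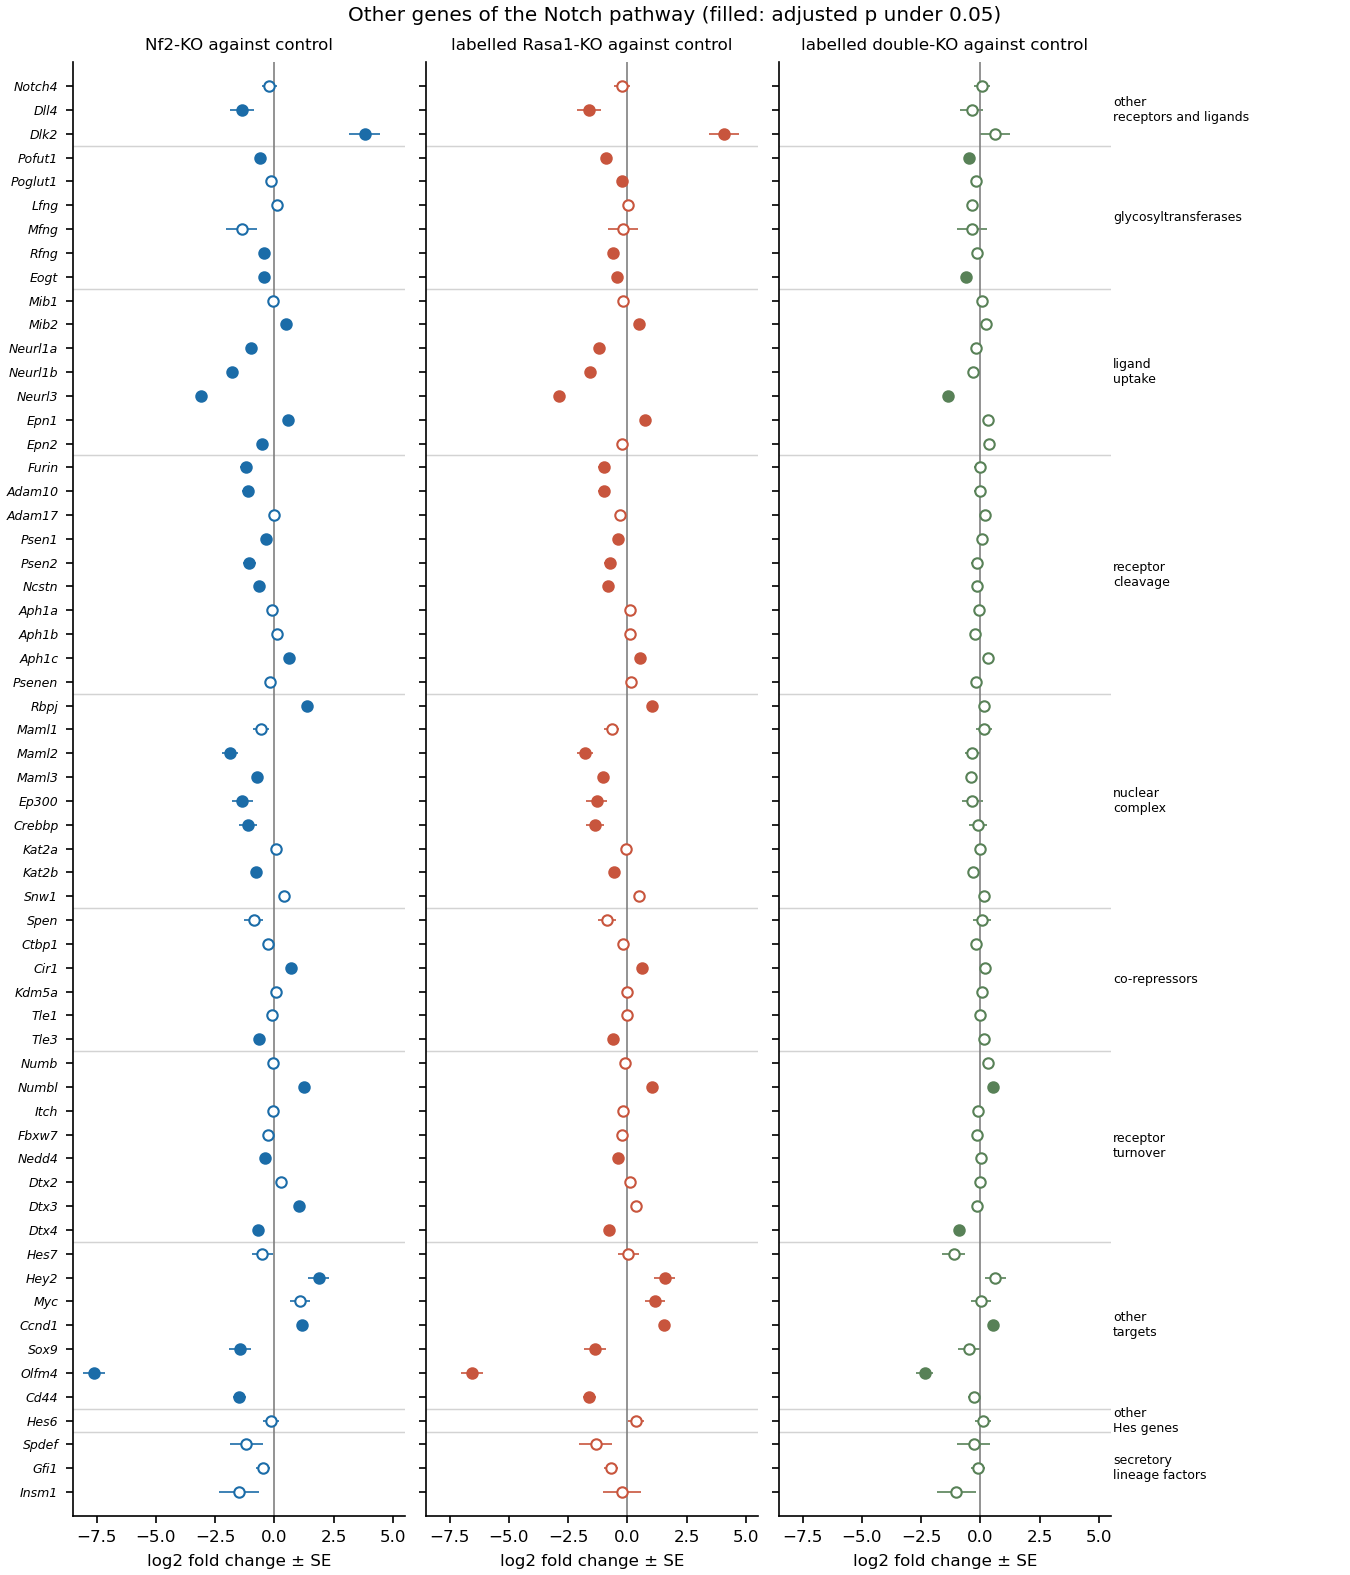
Log2 fold changes against control of the 60 other pathway genes, ordered by list from top to bottom, in *Nf2*-KO (left), the *Rasa1*-labelled libraries (middle) and the double-labelled libraries (right), with bars of 1 SE and filled points for an edgeR adjusted p under 0.05. *Olfm4* is the leftmost and *Dlk2* the rightmost point of the left and middle panels, and 7 points are filled in the right panel.

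For the 3 members with the widest span between group means of log2 CPM, the genes with the most similar pattern over the 12 libraries were listed from 12276 candidates, as a description. *Notch3*, with a span of 3.10, was most like *Sema7a* (Pearson r = 0.979), *Tnn* (r = 0.978) and *Fbn1* (r = 0.977). *Jag1*, with a span of 1.59, was most like *Garem1* (r = 0.996), *Ece1* (r = 0.994) and *Pld1* (r = 0.992). *Notch1*, with a span of 1.35, was most like *Stxbp4* (r = 0.989), *Herc1* (r = 0.985) and *Trps1* (r = 0.984). The 12 points share 4 groups and the same library preparations, so a gene that follows the groups gives a high r, and no p is given.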

How the data were processed

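Total RNA of S1 tumorspheres was measured in 12 libraries, 3 in each of 4 groups set by the genotype labels. According to the submitters' processing notes and the study's methods, reads were trimmed by the authors (Trimmomatic 0.38) and aligned to the mm10 build (HISAT2 2.1.0, SAMtools 1.9), and RefSeq genes were quantified in StringTie 2.1.3b. The read counts deposited by the authors are raw. Their FPKM, deposited beside the counts, are scaled by the authors to transcript length and mapped reads and served here to compare levels between genes, whereas the TPM and a column of normalized log2 values that the authors deposited were not used. The libraries were made with a stranded kit, but whether reads were counted by strand is not given in the sources used here. It is therefore not known whether reads of genes that overlap a member were told apart from its own. An example is the lncRNA 0610009E02Rik at *Notch1* (1489 shared bases). Larger overlaps were those of the lncRNAs Gm38585 (10673 bases) and Gm41568 (3142 bases) with *Notch3* and of Gm40103 (3803 bases) with *Notch2*. These lncRNAs are not among the genes of the deposited tables.

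Counts were tested in R 4.3.3 with edgeR 4.0.16: filterByExpr, TMM factors (0.946 to 1.15), and 1 quasi-likelihood fit over all 12 libraries, with Benjamini-Hochberg adjustment over 18053 genes and a threshold of 0.05. The comparisons were each knockout group with control and the knockout groups with each other. A prior count of 2 was added for log2 CPM. The code was tested on simulated data. An exact permutation test of 3 against 3 libraries has a smallest two-sided p of 0.1, and none was run. Alternatives were DESeq2 1.42.0, RLE size factors, no filter, only the groups compared, the fold threshold of the study on the edgeR fit, replicate blocks, leaving out libraries, log2 FPKM tested with limma 3.58.1, and exchanged labels.

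The 9 genes, the lists and the tests were chosen with earlier results of these data known. Other pathway genes were named at an adjusted p under 0.05 with an absolute log2 fold change of at least 1 against control, or as the most abundant of a list with none. The replicate numbers of the sample titles did not pair libraries (correlations of deviations from the group means between -0.379 and 0.399, both for a control library and one labelled double-KO). By the numbers in the table names, the 3 pairs of a control library and one labelled double-KO had correlations of 0.626, 0.313 and 0.444, and pairs of other groups had between -0.055 and 0.174. Promoters are from the RefSeq table of GRCm38.p6. A planned search of protein ends was not run, and 1 gene of the planned lists is not reported here. Figures were drawn with matplotlib 3.10.9.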

Additional observations from a re-analysis of the deposited data

How the results depend on the processing

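Of the values of single genes under the alternatives, leaving out the fold rule and the exchanged labels, 701 kept their direction and their side of the threshold, 53 newly passed it in the same direction, 21 no longer passed it and 35 turned direction, 2 of them past the threshold. The cause of these changes was not tested. By the fold rule, 1 gene was called in *Nf2*-KO, 1 in the *Rasa1*-labelled libraries, 0 in the double-labelled libraries, and 1 in each comparison of the double-labelled libraries with another knockout. With only the groups compared, the double-labelled libraries had 0 calls against control (0.102% of all genes passed) and 6 against *Nf2*-KO (46.3%), and the *Rasa1*-labelled libraries had 7 against *Nf2*-KO (25.8%). DESeq2 called 2 genes in the latter comparison. Leaving out 1 library gave between 0 and 6 calls in the double-labelled libraries against control, 6 without the unnumbered control, 1 without control library 1 and 0 without double-labelled library 3. The shares of all genes that passed without 1 library are not given here, so these counts cannot be read against a background.

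Without both libraries that lack a table number, the calls were 8 in *Nf2*-KO, 9 in the *Rasa1*-labelled libraries, 5 in the double-labelled libraries, 5 between the double-labelled and the *Rasa1*-labelled libraries, 5 between the *Rasa1*-labelled and the *Nf2*-KO libraries and 6 between the double-labelled and the *Nf2*-KO libraries. The shares of all genes called were 67.0%, 65.9%, 29.9%, 50.3%, 19.2% and 50.6% in these comparisons, in the same order. In that setting, other pathway genes called were 18 in the double-labelled libraries against control (7 with all libraries), 40 between the double-labelled and the *Rasa1*-labelled libraries (24 with all libraries) and 10 between the *Rasa1*-labelled and the *Nf2*-KO libraries (0 with all libraries), an alternative chosen after seeing the data. Also in that setting, *Hes1* turned to 0.31 in the *Rasa1*-labelled libraries and 0.26 in the double-labelled libraries against control and to -0.052 between them, *Notch2* to -0.077 and *Hey1* to 0.30 in the double-labelled libraries.

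When 1 library was left out, *Hes1* ranged from -0.66 to 0.31 in the *Rasa1*-labelled libraries, from -0.44 to 0.56 in the double-labelled libraries and from -0.052 to 0.39 between them. *Hey1* ranged from -0.31 to 0.92 in the *Rasa1*-labelled libraries and from -0.60 to 0.62 in the double-labelled libraries. In the double-labelled libraries, *Notch1* ranged from -0.22 to 0.11, *Notch2* from -0.16 to 0.19 and *Notch3* from -0.77 to 0.23. Near 0 with all 12 libraries, these log2 fold changes of the double-labelled libraries against control also turned elsewhere: *Notch1* to 0.0029 by DESeq2 and 0.011 without a filter, *Notch2* to -0.026 and -0.025 in log2 FPKM with a pseudocount of 1 and 0.1, and *Notch3* to 0.16 with a pseudocount of 0.1.

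With the replicate block by title number, the double-labelled libraries against control lost *Jag2* (0.57) and turned to -0.039 for *Notch2*, 0.34 for *Hes1* and 0.30 for *Hey1*, *Dll1* lost its call in the *Rasa1*-labelled libraries (-0.49), and the title numbers did not pair the libraries. With the replicate block by the number in the table names, 1 gene was called between the *Rasa1*-labelled and the *Nf2*-KO libraries and 5 between the double-labelled and the *Nf2*-KO libraries. The share of all genes that passed with this block is not given here, so these counts cannot be read against a background. In this replicate block, *Hes1* turned to 0.18 in the *Rasa1*-labelled libraries, 0.0045 in the double-labelled libraries and -0.17 between them, *Notch1* to 0.016 and *Notch3* to 0.31 in the double-labelled libraries, *Jag2* to -0.015 between the double-labelled and the *Rasa1*-labelled libraries, and *Dll1* to 0.089 between the double-labelled and the *Nf2*-KO libraries. *Nrarp* in the double-labelled libraries was the single call against control that this block added in the group whose libraries it paired, and elsewhere it added *Hey1* in *Nf2*-KO (1.13), in the *Rasa1*-labelled libraries (0.71) and in both comparisons of the double-labelled with other knockout libraries, and *Notch2* in *Nf2*-KO (-0.34), between the *Rasa1*-labelled and the *Nf2*-KO libraries (-0.60) and between the double-labelled and the *Nf2*-KO libraries (0.42).

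With exchanged labels, 3 genes were called in *Rasa1*-KO against control, 6 in double-KO against control, 3 between *Rasa1*-KO and *Nf2*-KO and 0 between double-KO and *Nf2*-KO. Of all genes tested, 4.00%, 19.7%, 16.9% and 1.92% were higher and 2.46%, 22.2%, 15.3% and 1.74% lower in these comparisons, in the same order. Against control, *Rasa1*-KO then had 0.050 for *Notch2*, -0.22 for *Notch3* and -0.28 for *Hey1*, and double-KO had -0.85, 1.40 and 0.016. Between double-KO and *Rasa1*-KO, the values were -1.35 for *Notch1*, -0.90 for *Notch2*, 1.63 for *Notch3*, -1.07 for *Jag1*, -0.053 for *Jag2*, 0.30 for *Dll1*, -0.25 for *Hes1*, 0.30 for *Hey1* and 0.27 for *Nrarp*. Against *Nf2*-KO, *Rasa1*-KO had 0.77 for *Notch1*, 0.30 for *Notch2*, 0.87 for *Jag1* and -0.060 for *Dll1*, and double-KO had -0.58, -0.60, -0.20 and 0.24. RLE size factors and DESeq2 moved the median of all genes by less than 0.1. The lowest count of any of the 9 genes in a library was 54, for *Notch3* in the unnumbered control.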

Other observations

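Other marker genes of the lists also differed between the groups. In the *Rasa1*-labelled libraries, the keratins *Krt18*, *Krt19* and *Krt8* rose by 0.83, 0.70 and 0.64 on the log2 scale while *Cdh1*, E-cadherin, fell by 1.57 and *Epcam*, an epithelial adhesion molecule, fell by 1.55. *Muc5ac*, the mucin of gastric pit cells, fell by 4.47 in *Nf2*-KO, by 3.97 in the *Rasa1*-labelled libraries and by 1.93 in the double-labelled libraries. *Tff1*, a peptide of the same cells, rose by 2.25 in the *Rasa1*-labelled libraries and changed by 1.25 and 1.31 in the other two groups, which did not pass. *Col1a2* rose by 9.47 in *Nf2*-KO and by 7.27 in the *Rasa1*-labelled libraries, and *Pdgfra* by 4.45 and 3.28. *Cd68* rose by 1.02 and 1.58, while *Ptprc*, the common leukocyte antigen, did not pass.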
